A study of Mus musculus with 12 samples.

Results

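Tetraspanins are small membrane proteins that cross the membrane repeatedly and gather integrins, immunoglobulin-like proteins and proteases into tetraspanin-enriched microdomains. Several of them hold integrins at the surface or escort them through endosomes, and CD9, CD63 and CD81 are also carried on extracellular vesicles. Macrophages carry many of them, and CD9 and CD81 are known to restrain the fusion of macrophages into multinucleated cells. The expression of 10 tetraspanin genes of the macrophage surface (Cd9, Cd37, Cd53, Cd63, Cd81, Cd82, Cd151, Tspan3, Tspan4 and Tspan14) was examined, chosen by gene symbol among the 54532 genes of the deposited tables. Each symbol matched a single gene, and all 10 had enough counts to be tested in every comparison.

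Bone marrow-derived macrophages (BMMs) came from wild-type C57BL/6J mice aged 2 to 3 months. They were grown in CSF-1 at 12 ng/ml for 24 h and then at 120 ng/ml for 48 h. The medium of both steps also held fetal bovine serum. The cells were held on uncoated dishes or on dishes coated with the matrix protein fibronectin, the ligand of the α5β1 integrin. They were then exposed for 24 h to 10 µg/ml of IgG or of an antibody that neutralizes the α5 chain (anti-ITGA5). Each antibody was thus combined with each surface, which gave 4 groups of 3 polyA RNA-seq libraries. Groups called without fibronectin lacked the coating, and any fibronectin in their medium was not measured. The study describes its macrophage replicates as biologically independent experiments, and the labels do not name the mice or cultures behind each library.

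Libraries held 12954342 to 22075432 counts. Replicate libraries of the anti-ITGA5 group without fibronectin stood furthest apart, with a mean chi-square of 11.4 to 25.6 per gene between pairs, against 2.79 to 8.13 in the other groups. Replicate 2 of that group was the shallowest library and lay in both of its least similar pairs, so the antibody results of the members without fibronectin are also given without it, as are those of the other gene lists where a call changed. The BMMs carried all 7 macrophage markers examined, with a summed level of 1569.8 to 1884 FPKM (fragments scaled to gene length and to the depth of the library) per library. Ly6g, Cd3d and Cd3g, markers of neutrophils and T cells, were at 0 counts in all 12 libraries. Of the same lists, the neutrophil markers S100a8 and Mpo had 17 to 44 and 3 to 21 counts per library, and Cd3e at most 1. Because RNA was taken from whole cultures, fewer cells of a type and less RNA per cell cannot be told apart.

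The coding sequences show what the members share. All 10 carry the Cys-Cys-Gly codons that mark the large extracellular loop of a tetraspanin, here read from the GENCODE M21 transcripts (GRCm38). The stretch is shown for Cd9 and Cd81, which were lower on both coatings, and for Cd151 and Tspan4, neighbours that did not move together. Capitals mark the Cys-Cys-Gly codons, with 4 codons on either side.
Cd9: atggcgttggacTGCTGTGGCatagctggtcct
Cd81: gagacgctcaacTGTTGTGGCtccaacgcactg
Cd151: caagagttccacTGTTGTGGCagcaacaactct
Tspan4: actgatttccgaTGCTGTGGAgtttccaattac
The Cys-Cys-Gly residues start at residue 150 of CD9, 156 of CD81, 155 of CD151 and 147 of TSPAN4. Translated proteins ran from 219 residues for CD53 to 303 for CD37. CD9 and CD81 were the most alike pair, with 44.1% of aligned columns identical, followed by CD53 and TSPAN4 with 36.8%.

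Expression of the members spanned a wide range and kept the same order of means in all 4 groups. In the IgG group without fibronectin, Cd53 was the highest at 410.3 ± 26.9 FPKM (SD, n = 3 here and below), or 44.2% of the summed level of the members, above 99.4% of the genes tested. Cd9 followed at 141.6 ± 1.60 FPKM, Cd63 at 133.7 ± 1.05, Cd81 at 80.6 ± 3.41 and Tspan14 at 50.8 ± 3.04. Tspan4 (33.2 ± 1.16), Cd37 (28.0 ± 1.18), Cd151 (23.9 ± 0.812), Tspan3 (18.6 ± 0.420) and Cd82 (7.79 ± 0.639) completed the order. Neighbours in this order did not overlap between libraries, and in both anti-ITGA5 groups Cd9 and Cd63 did overlap. The summed level of the 10 genes was 928 ± 30.1 FPKM with IgG and 845 ± 47.8 with anti-ITGA5 without fibronectin, and 982 ± 13.9 and 870.1 ± 23.7 with fibronectin.

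**Figure D1:**
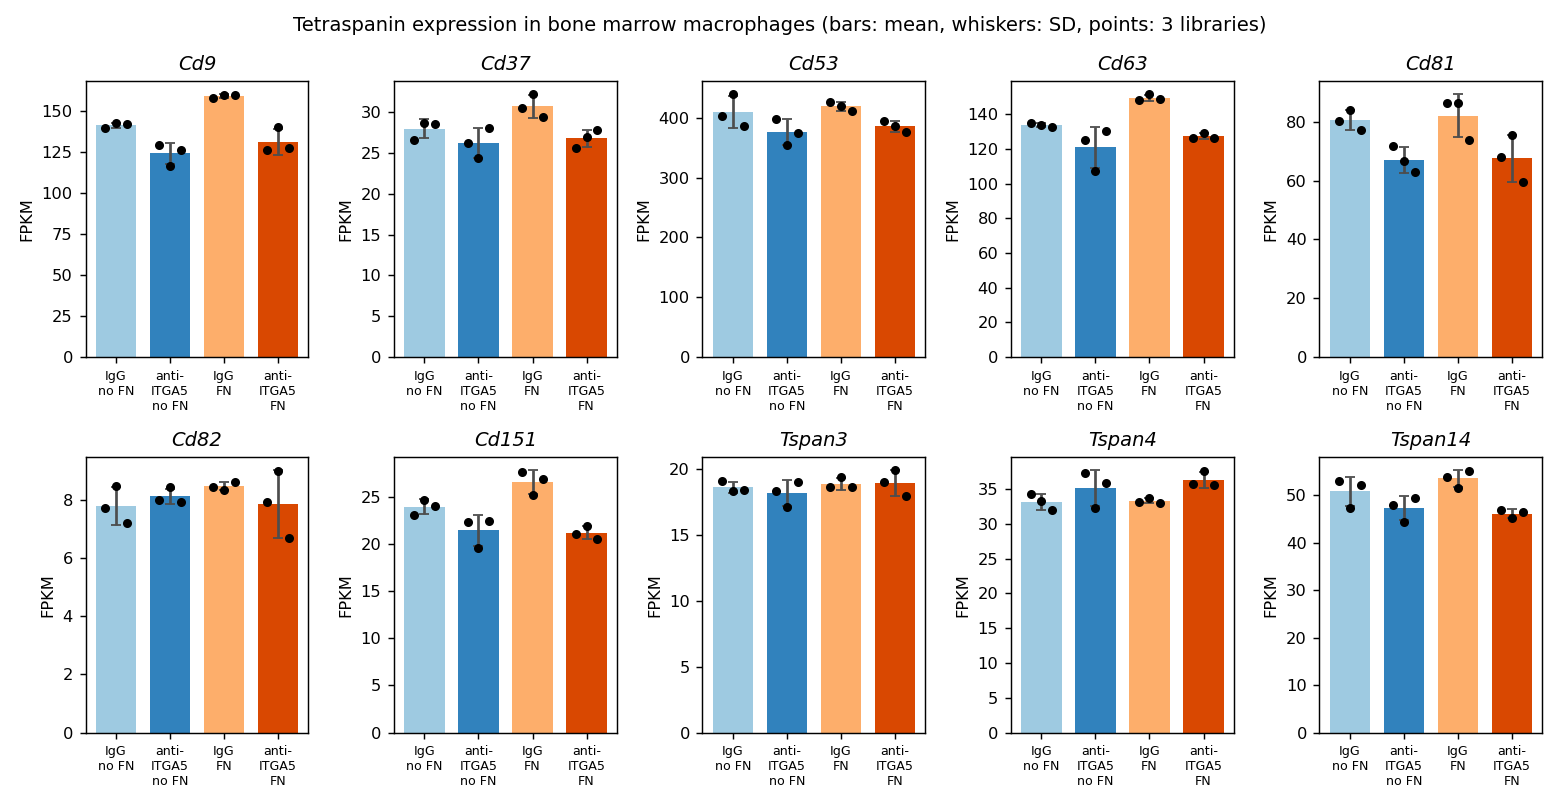
Level of each tetraspanin gene in FPKM (vertical axis, from 0) in the 4 groups, without (no FN) and with fibronectin (FN); bars are means, whiskers SDs and points the 3 libraries. On fibronectin the anti-ITGA5 libraries lie below all IgG libraries for Cd9, Cd37, Cd53, Cd63, Cd151 and Tspan14, overlap with them for Cd81, and lie above them for Tspan4.

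ITGA5 neutralization lowered part of the set, and no member was called higher by edgeR. On fibronectin, 7 of the 10 genes fell (Cd151, Cd81, Cd9, Cd63, Tspan14, Cd37 and Cd53), by 0.12 to 0.33 on the log2 scale, by edgeR's quasi-likelihood test at an adjusted p of at most 0.05. Over all genes tested, 13.2% fell and 14.4% rose in that comparison. Without fibronectin 2 of the 10 fell (Cd81 and Cd9) and none rose, against 9.79% lower and 11.0% higher over all genes. These shares depended on single libraries. Without fibronectin the share of all genes called lower was 4.70% to 5.91% when any IgG library or anti-ITGA5 replicate 1 was left out, 7.58% without anti-ITGA5 replicate 3 and 14.0% without replicate 2, and on fibronectin it was 8.43% without anti-ITGA5 replicate 1 and 9.26% to 14.4% without another library. The median log2 change of the members was −0.21 with fibronectin and −0.11 without, beside 0.00 and 0.01 for all genes. Without anti-ITGA5 replicate 2 the median of the members without fibronectin was −0.07. Of the members above 0, Tspan4 on fibronectin had an unadjusted p under 0.05 (0.022). DESeq2 called none higher on either coating, and total-count scaling, the replicate block and limma after a minimum of 0.5 FPKM each called Tspan4 higher on fibronectin. In those 3 settings 18.6%, 18.0% and 12.5% of all genes were called higher, against 14.4% in the main fit. The largest of the 10 changes, that of Cd151 on fibronectin, was a decrease of 20.3%.

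**Figure D2:**
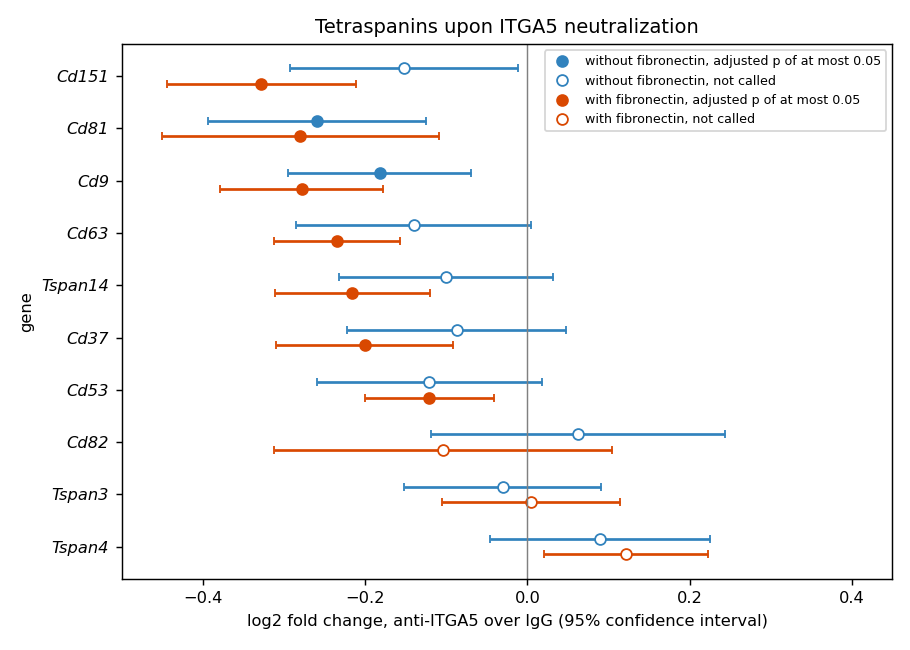
Log2 fold change of each tetraspanin gene, anti-ITGA5 over IgG (horizontal axis), without fibronectin (blue) and with it (orange); whiskers are 95% confidence intervals from edgeR and filled points have an adjusted p of at most 0.05. Filled points number 7 with fibronectin and 2 without, all to the left of 0, and Tspan4 lies to the right of 0 on both coatings.

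Cd9 and Cd81 encode close relatives that bind each other's partners, among them the immunoglobulin proteins EWI-2 and EWI-F, and were lower on both coatings. Cd9 (ENSMUSG00000030342, chr6:125460266-125494791, minus strand, GRCm38) measured 139.8, 142.8 and 142.2 FPKM in the IgG libraries without fibronectin and 129.7, 116.9 and 126.4 with anti-ITGA5. On fibronectin it measured 158.1, 160.1 and 160.1 FPKM with IgG and 126.2, 140.7 and 127.7 with anti-ITGA5. The antibody groups did not overlap on either coating. Cd9 fell by 0.28 on the log2 scale with fibronectin (SE 0.046, edgeR adjusted p = 0.00074) and by 0.18 without it (SE 0.051, edgeR adjusted p = 0.029). The decrease on fibronectin kept its call when any library was left out. The call without fibronectin was lost on leaving out any library but anti-ITGA5 replicate 2, with adjusted p of 0.053 to 0.10, and without replicate 2 it was −0.15 (edgeR adjusted p = 0.0085).

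Cd81 (ENSMUSG00000037706, chr7:143052739-143067934, plus strand) showed a similar decrease with more spread. Without fibronectin its levels were 80.3, 84.2 and 77.4 FPKM with IgG and 71.8, 66.7 and 62.8 with anti-ITGA5, and the groups did not overlap. On fibronectin they were 86.4, 86.4 and 73.7 FPKM with IgG and 68.0, 75.6 and 59.6 with anti-ITGA5, where the highest anti-ITGA5 library passed the lowest IgG library. Cd81 fell by 0.26 without fibronectin (SE 0.061, edgeR adjusted p = 0.013) and by 0.28 with it (SE 0.079, edgeR adjusted p = 0.019). Without replicate 2 of the anti-ITGA5 group the change without fibronectin was −0.26 (edgeR adjusted p = 0.0021). Single libraries decided both calls. The one without fibronectin was lost without IgG replicate 1 (edgeR adjusted p = 0.061), IgG replicate 2 (0.066) or anti-ITGA5 replicate 3 (0.056), and the one on fibronectin without IgG replicate 1 (0.084), IgG replicate 2 (0.065) or anti-ITGA5 replicate 1 (0.066).

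Cd151 encodes the tetraspanin that binds laminin-binding integrins most firmly, and had the largest decrease of the 10 genes. Its gene (ENSMUSG00000025510) lies at chr7:141467392-141471473 on the plus strand. With fibronectin, IgG libraries measured 27.6, 25.2 and 26.9 FPKM and anti-ITGA5 libraries 21.1, 21.9 and 20.6, without overlap. The log2 change was −0.33 (SE 0.054, edgeR adjusted p = 0.00071). Without fibronectin the levels were 23.1, 24.7 and 24.1 FPKM with IgG and 22.3, 19.5 and 22.5 with anti-ITGA5. There the groups also did not overlap, but the log2 change of −0.15 (SE 0.064, edgeR adjusted p = 0.12) was not called, and it was −0.10 without anti-ITGA5 replicate 2. The difference between the coatings was −0.18 on the log2 scale for Cd151 (interval −0.36 to −0.004), with an unadjusted p of 0.046 and an adjusted p of 1.00 in the edgeR interaction fit.

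Cd63 encodes a tetraspanin of late endosomes, lysosomes and exosomes that also reaches the plasma membrane. Its levels (ENSMUSG00000025351, chr10:128900989-128912822, plus strand) on fibronectin were 148.2, 151.5 and 148.8 FPKM with IgG and 126.4, 129.3 and 126.0 with anti-ITGA5. All 3 anti-ITGA5 libraries lay well below all IgG libraries, and the log2 change was −0.23 (SE 0.036, edgeR adjusted p = 0.00042). Without fibronectin, IgG libraries measured 134.8, 133.7 and 132.7 FPKM and anti-ITGA5 libraries 125.2, 107.3 and 130.1. These did not overlap either, but anti-ITGA5 replicate 2 was far below the others, and the log2 change of −0.14 (SE 0.066, edgeR adjusted p = 0.16) was −0.07 without it.

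Tspan14 belongs to the TspanC8 subgroup, which escorts the protease ADAM10 out of the endoplasmic reticulum. The gene (ENSMUSG00000037824, chr14:40906445-40966807, minus strand) measured 53.8, 51.6 and 55.1 FPKM with IgG on fibronectin and 46.9, 45.1 and 46.4 with anti-ITGA5. The groups were apart, with a log2 change of −0.22 (SE 0.044, edgeR adjusted p = 0.0030). Without fibronectin, levels of 53.0, 47.3 and 52.1 FPKM with IgG and 47.9, 44.4 and 49.4 with anti-ITGA5 overlapped, and the log2 change of −0.10 was not called (edgeR adjusted p = 0.27) and was −0.07 without anti-ITGA5 replicate 2. Of the 6 TspanC8 genes 4 were tested. Tspan17, another escort of ADAM10, fell on both coatings (−0.34 without fibronectin, edgeR adjusted p = 0.026, and −0.41 with it, edgeR adjusted p = 0.0037), while Tspan5 and Tspan33 were not called. Adam10 itself, named here after its values were seen, changed by −0.21 and −0.17 with an edgeR adjusted p of 0.052 on both coatings.

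Cd37, Cd53 and Cd82 are the leukocyte tetraspanins of the set. Cd37 (ENSMUSG00000030798, chr7:45233632-45239115, minus strand), a regulator of leukocyte adhesion and immune signaling, measured 30.5, 32.2 and 29.4 FPKM with IgG on fibronectin and 25.6, 26.9 and 27.8 with anti-ITGA5. The groups did not overlap and Cd37 fell by 0.20 (SE 0.050, edgeR adjusted p = 0.010), a call that was lost without anti-ITGA5 replicate 1 (edgeR adjusted p = 0.061). Without fibronectin the levels of 26.6, 28.7 and 28.6 FPKM with IgG and 26.2, 24.4 and 28.0 with anti-ITGA5 overlapped, and the log2 change was −0.09 (edgeR adjusted p = 0.36), or −0.05 without anti-ITGA5 replicate 2, the lowest of these libraries (edgeR adjusted p = 0.57).

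Cd53 (ENSMUSG00000040747, chr3:106759921-106790149, minus strand), a pan-leukocyte tetraspanin, had the smallest called change. On fibronectin its levels were 426.7, 420.7 and 412.0 FPKM with IgG and 395.6, 386.6 and 377.1 with anti-ITGA5. The libraries did not overlap, and the log2 change was −0.12 (SE 0.037, edgeR adjusted p = 0.027). That call was lost in 5 of the 6 fits that left out a library (edgeR adjusted p of 0.052 to 0.092; IgG replicate 3 was the exception). It was also lost when libraries were scaled by total counts, where the change was −0.08 (edgeR adjusted p = 0.11). Without fibronectin the levels were 403.5, 439.9 and 387.4 FPKM with IgG and 398.8, 355.0 and 374.2 with anti-ITGA5. They overlapped, and the log2 change of −0.12 was not called (edgeR adjusted p = 0.21) and was −0.09 without anti-ITGA5 replicate 2.

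Cd82 (ENSMUSG00000027215, chr2:93419111-93463140, minus strand), a tetraspanin known as a suppressor of metastasis, was the lowest of the set. IgG libraries measured 7.72, 8.47 and 7.19 FPKM without fibronectin and 8.46, 8.33 and 8.61 with it, and anti-ITGA5 libraries 7.98, 8.43 and 7.95 and then 7.92, 9.01 and 6.68. The groups overlapped on both coatings. The log2 change was 0.06 without fibronectin (95% confidence interval −0.12 to 0.24, edgeR adjusted p = 0.64) and −0.10 with it (−0.31 to 0.10, edgeR adjusted p = 0.46). The former was 0.03 without anti-ITGA5 replicate 2.

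Tspan3 and Tspan4 were not called in either direction. Tspan3 (ENSMUSG00000032324, chr9:56131725-56165477, minus strand) ranged from 17.1 to 19.9 FPKM over all 12 libraries, and its groups overlapped on both coatings. Its log2 change was −0.03 without fibronectin (interval −0.15 to 0.09; 0.003 without anti-ITGA5 replicate 2) and 0.00 with it (−0.11 to 0.11), and its sign depended on the libraries and the scaling used. Tspan4 (ENSMUSG00000025511, chr7:141475240-141493427, plus strand), a component of the vesicle-like migrasomes left behind by moving cells, was the one member whose anti-ITGA5 libraries lay above the IgG libraries on fibronectin. There it measured 33.2, 33.7 and 33.0 FPKM with IgG and 35.7, 37.5 and 35.6 with anti-ITGA5. The log2 change was 0.12 (SE 0.047, edgeR adjusted p = 0.070), and it was called when total counts set the scale (0.16, edgeR adjusted p = 0.021). Without fibronectin, 34.3, 33.2 and 32.0 FPKM with IgG and 37.3, 32.2 and 35.9 with anti-ITGA5 overlapped (log2 change 0.09, edgeR adjusted p = 0.35). The overlap came from anti-ITGA5 replicate 2, and without it the change was 0.14 (edgeR adjusted p = 0.061). Across 16 alternatives the change without fibronectin ranged from 0.05 to 0.14 and was never called. Its adjusted p was highest without anti-ITGA5 replicate 1 (0.69, edgeR).

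Cd151 and Tspan4 lie near each other on chromosome 7 in the same orientation, and the ratio of their counts needs no scaling between libraries. This ratio was computed after the values of both genes were seen and is given as a description. It was 0.847, 0.935 and 0.948 Cd151 counts per Tspan4 count with IgG without fibronectin, and 0.754, 0.763 and 0.789 with anti-ITGA5. On fibronectin it was 1.05, 0.939 and 1.03 with IgG and 0.742, 0.735 and 0.727 with anti-ITGA5. Every anti-ITGA5 library had a lower ratio than every IgG library on either coating. Exons of Tspan4 overlap those of Chid1 on the opposite strand, and no source states whether counting used strand. Chid1 was at 3.72 ± 0.047 FPKM with IgG and 4.35 ± 0.116 with anti-ITGA5 without fibronectin, and at 3.85 ± 0.052 and 4.23 ± 0.072 with it, so its mean was higher with the antibody, as that of Tspan4 was, and its part in the Tspan4 values was not tested. Exons of Cd9, Cd37, Cd81 and Cd151 also overlap a gene of the opposite strand (Gm26728, Tead2, R74862 and Gm10575). Those genes held at most 40 counts in any library, and each of these members held at least 737. How reads in the shared exons were counted is not known, and the part of these overlaps was not tested.

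**Figure D3:**
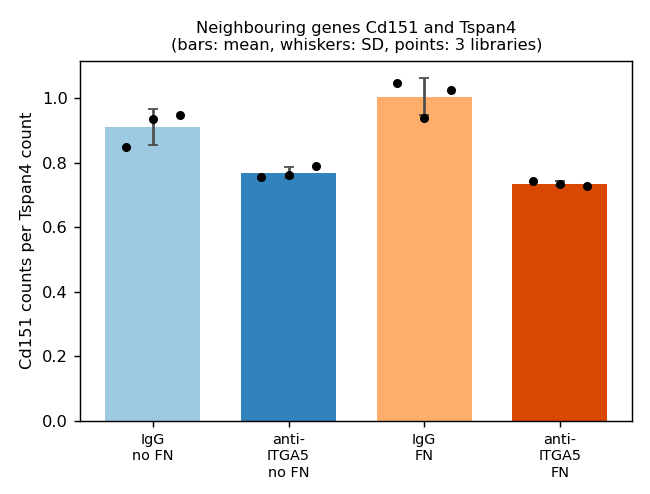
Ratio of Cd151 counts to Tspan4 counts (vertical axis, from 0) in the 4 groups, without (no FN) and with fibronectin (FN); bars are means, whiskers SDs and points the 3 libraries. Anti-ITGA5 libraries lie between 0.727 and 0.789 and IgG libraries between 0.847 and 1.05.

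Fibronectin alone had little effect on these genes, and where it did the levels were higher. In IgG-treated BMMs, Cd9 rose by 0.17 on the log2 scale upon culture on fibronectin (SE 0.034, edgeR adjusted p = 0.043), and no member fell, since all 10 changes were above 0. Over all genes tested, 0.325% rose and 0.124% fell. The Cd9 groups did not overlap, but the call was lost on leaving out any of the 6 libraries (edgeR adjusted p of 0.060 to 0.34). The log2 changes were 0.16 for Cd63 (edgeR adjusted p = 0.051), 0.14 for Cd151 (0.33) and 0.13 for Cd37 (0.34), and in each of these the fibronectin libraries lay above the uncoated ones. In anti-ITGA5-treated BMMs the 10 changes lay between −0.06 and 0.07 and none was called by edgeR, as for 0.0% of all genes, and none of the 10 had an unadjusted p under 0.05 there. DESeq2 called none of the members in that comparison either. Both antibody comparisons and both coating comparisons share groups, so they are not independent of each other.

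The difference of the antibody effect between the coatings was tested directly in a fit of all 12 libraries. None of the 10 genes was called by edgeR, with interaction terms of −0.18 to 0.03 on the log2 scale, against 0.0223% of all genes called, and DESeq2 called none. Cd151 was the one member with an unadjusted p under 0.05. The larger number of decreases on fibronectin was therefore not shown to be an effect of the coating. Intervals of these differences, from −0.45 to 0.22 over the members, include changes as large as the antibody effects themselves.

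Promoter sequence was read for the members that fell with fibronectin, to show the control regions of genes that moved together. RefSeq windows of the 250 bases before a start site (GRCm38.p6) matched all 10 members, 16 windows in all. Those of Cd81 (chr7:143052500-143052749, plus strand), Cd151 (chr7:141467112-141467361, plus strand) and Tspan14 (chr14:40966897-40967146, minus strand) are given 5′ to 3′, with capitals for the GC box GGGCGG on either strand and, in Tspan14, for 1 core GAGGAA.
Cd81: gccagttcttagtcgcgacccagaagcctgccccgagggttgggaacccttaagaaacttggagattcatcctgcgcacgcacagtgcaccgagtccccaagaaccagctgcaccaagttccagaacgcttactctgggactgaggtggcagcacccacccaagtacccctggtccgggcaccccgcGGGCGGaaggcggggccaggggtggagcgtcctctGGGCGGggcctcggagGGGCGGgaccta
Cd151: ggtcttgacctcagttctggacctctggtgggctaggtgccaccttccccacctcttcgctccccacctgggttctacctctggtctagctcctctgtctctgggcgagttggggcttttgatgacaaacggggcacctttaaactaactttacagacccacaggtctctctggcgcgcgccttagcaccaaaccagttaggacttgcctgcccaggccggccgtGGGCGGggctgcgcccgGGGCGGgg
Tspan14: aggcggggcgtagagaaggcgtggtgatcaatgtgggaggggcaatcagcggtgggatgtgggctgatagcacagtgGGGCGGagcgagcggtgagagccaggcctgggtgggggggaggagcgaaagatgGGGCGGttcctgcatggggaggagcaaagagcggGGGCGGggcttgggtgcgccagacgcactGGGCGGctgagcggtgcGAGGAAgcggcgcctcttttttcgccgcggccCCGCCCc
The GC box was in 8 of the 16 member windows, against 32.7% of all 32851 windows, and in at least 1 window of 7 of the 10 members. The printed windows held 65.6% (Cd81), 62.4% (Cd151) and 69.6% (Tspan14) G and C bases, against a median of 52.4% over all windows. Member windows ranged from 45.2% (Cd53) to 69.6%, and the part of base content in the motif counts was not tested. Of the 7 members that fell on fibronectin, Cd53 and Cd63 had none, and the second windows of Cd151 and Tspan14 had none either. Of the members that were not called lower, Tspan4 had 2 in a window and Cd82 had 1 in each of 2 windows, and Tspan3 had none. GAGGAA, the core bound by ETS factors such as PU.1, was in 6 of the 16 windows and in 23.3% of all, and CACGTG in 2 and 6.02%. CCAAT was in 3 of the 16 and in 33.8% of all windows. Neither TGACTCA nor TATAAA was found in a member window (4.46% and 12.4% of all). All motifs were searched on both strands. Exons of Cd151 overlap those of Gm10575 and exons of Cd81 those of R74862, both genes of the opposite strand. How far these 2 genes reach into the windows is not given here.

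Of 21 other tetraspanins, 10 were tested without fibronectin and 9 with it. On each coating 1 was lower and 1 higher with anti-ITGA5, against 9.79% and 11.0% of all genes without fibronectin and 13.2% and 14.4% with it. Tspan17 was the lower one (above), from 13.2 ± 0.895 to 10.4 ± 0.916 FPKM without fibronectin and from 13.4 ± 0.892 to 10.1 ± 0.816 with it. Tspan32, a tetraspanin of blood cells, was the higher one, by 0.30 on both coatings (edgeR adjusted p = 0.028 in each). Their median log2 changes were −0.13 and −0.22. Without anti-ITGA5 replicate 2 the former was −0.07, over 11 tested genes in place of 10. Tspan11 was at 0 counts in every library.

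Partners of the tetraspanins were examined from a list of 17 genes, 16 of them tested. Without fibronectin 4 fell and 1 rose with anti-ITGA5, and with fibronectin 5 fell and 1 rose, with list medians of −0.06 and −0.11. The shares over all genes were 9.79% lower and 11.0% higher without fibronectin, and 13.2% and 14.4% with it. Itgb2, the β2 integrin chain of leukocytes, fell by 0.20 without fibronectin (edgeR adjusted p = 0.019) and by 0.30 with it (edgeR adjusted p = 7.2e-05). Ptgfrn, which encodes the CD9 and CD81 partner EWI-F, fell by 0.56 and 0.73 (edgeR adjusted p = 0.048 and 0.0059) from levels near 0.5 FPKM. Sdcbp, the gene of syntenin, which binds the tail of CD63, fell by 0.20 and 0.15 (edgeR adjusted p = 0.028 and 0.0090). Pi4k2a, a lipid kinase found with tetraspanins, fell by 0.17 on both coatings, and the scavenger receptor gene Cd36 fell by 0.18 on fibronectin (edgeR adjusted p = 0.039). Cd44, the hyaluronan receptor, rose by 0.27 and 0.24 (edgeR adjusted p = 0.0050 and 0.0025).

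Among the integrin chains of the list, Itgb2 (above) was called, and Itga3, a chain that CD151 binds, had at most 8 counts in any library and was not tested. Itgb1 changed by −0.04 and −0.08, Itga6 by −0.08 and −0.04 and Itga4 by 0.02 and 0.12 on the log2 scale, without and with fibronectin, and none of these was called by edgeR. Itga5, which encodes the chain the antibody binds, changed by 0.15 (edgeR adjusted p = 0.091) and 0.07 (edgeR adjusted p = 0.27). Without anti-ITGA5 replicate 2, the uncoated comparison no longer called Ptgfrn (−0.47, edgeR adjusted p = 0.058), while Itga5 (0.15, edgeR adjusted p = 0.034), Adam10 (−0.14, edgeR adjusted p = 0.031) and Cd47 (−0.14, edgeR adjusted p = 0.045) were called. Igsf8, the gene of EWI-2, changed by 0.02 on both coatings. Of 12 genes of vesicle formation and release 10 were tested. Besides Sdcbp, Pdcd6ip, the gene of the ALIX protein that binds syntenin, fell without fibronectin (−0.19, edgeR adjusted p = 0.019) and measured −0.07 with it (edgeR adjusted p = 0.18), and no gene of this list rose. That is 2 of 10 lower without fibronectin and 1 of 10 with it, against 9.79% and 13.2% of all genes.

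**Figure D4:**
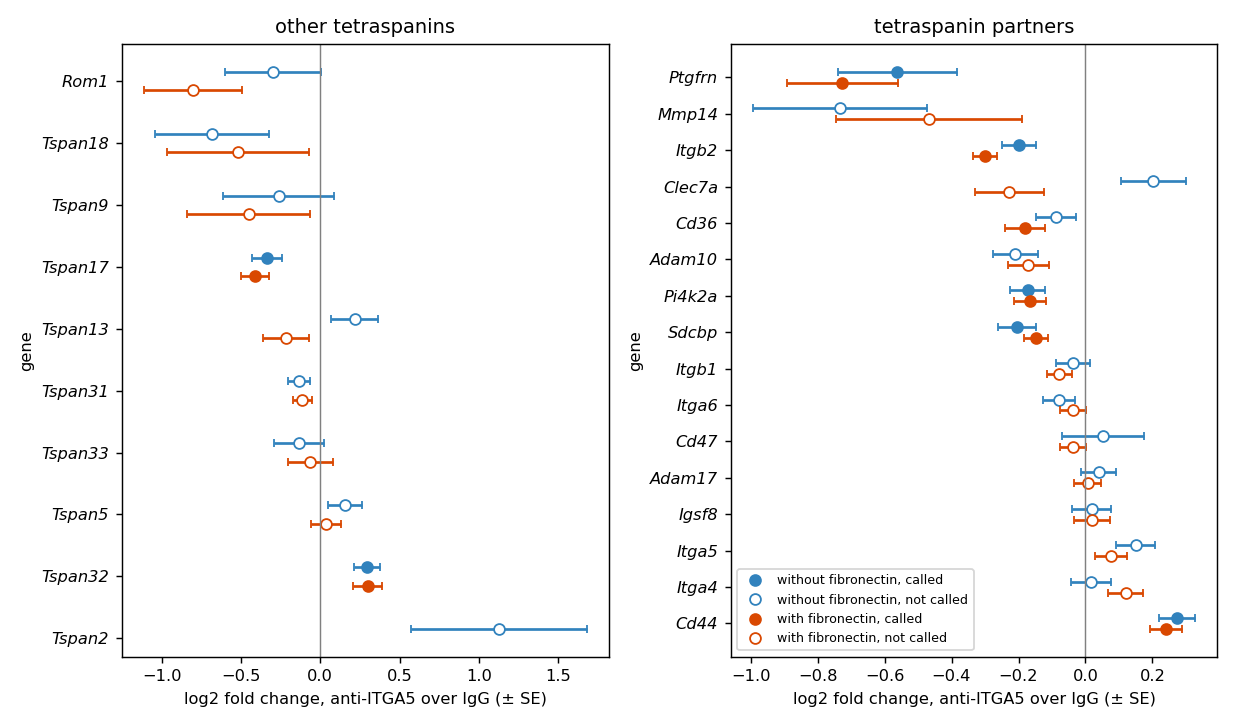
Log2 fold change, anti-ITGA5 over IgG (horizontal axis, whiskers are SEs), of the tested genes among the other tetraspanins (left) and the tetraspanin partners (right), without fibronectin (blue) and with it (orange); filled points have an adjusted p of at most 0.05. Tspan17, Itgb2, Ptgfrn, Sdcbp and Pi4k2a lie to the left and Tspan32 and Cd44 to the right on both coatings.

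Markers of cell state and of other cell types also moved with the antibody, in comparisons where 9.79% of all genes fell and 11.0% rose without fibronectin, and 13.2% and 14.4% with it. Of 7 macrophage markers 3 fell (Mertk, Itgam and Cd68) and Cd14 rose on both coatings, and their summed level was 1828 to 1884 FPKM in the IgG libraries and 1569.8 to 1755 in the anti-ITGA5 libraries. Of 6 proliferation genes, Ccnb1, Mki67, Top2a and Cdk1 rose on both coatings, and the list summed to 334 to 404 FPKM with IgG and 469 to 557 with anti-ITGA5. B cell markers summed to 3.08 to 4.59 FPKM with IgG and 1.98 to 2.80 with anti-ITGA5, and platelet and megakaryocyte markers to 4.95 to 7.93 and 2.14 to 5.02. Among these Cd79b fell on fibronectin (and without it when anti-ITGA5 replicate 2 was left out). Ppbp fell and Gp1ba, with only 2 to 16 counts per library, rose on both coatings, and Gp1bb was at 0 counts. Neutrophil markers summed to at most 4.44 FPKM in any library, with Mpo (3 to 21 counts per library) lower on fibronectin. T cell markers summed to at most 0.0148, fibroblast markers to at most 0.378 and dendritic cell markers to at most 0.268. In the osteoclast and fusion list, which summed to 8.66 to 14.6 FPKM, Acp5 fell on fibronectin and Calcr was at 0 counts. The part of cell state or of other cells in the tetraspanin values was not tested.

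Genes with the most similar pattern were sought among 9039 genes by Pearson's r of log2 CPM (depth-scaled counts) over the 12 libraries. These libraries share groups and scaling, so the values are descriptive. The closest gene was Ptgr1 for Cd9 (r = 0.974), Jag2 for Cd81 (0.967), Cyb5a for Cd151 (0.975), Bnip2 for Cd63 (0.963) and Jmjd8 for Tspan14 (0.951). For the leukocyte members it was Pld3 for Cd37 (0.920), Pdp1 for Cd53 (0.952) and Wdcp for Cd82 (0.823). Tspan3 was most like Vapb (0.878) and Tspan4 most like Got2 (0.981). The second genes were Ninj1, Ifngr1, Cdc42se1, Akr1a1 and Slc8b1 for the first 5 members in the order given, Neu1, Chmp5 and Auh for the leukocyte members, and Smdt1 and Vdac3 for Tspan3 and Tspan4. Within the set Cd9 and Cd63 were the most alike (r = 0.935), followed by Cd9 and Cd151 (0.921), whereas Tspan4 ran against Tspan14 (−0.53) and Cd151 (−0.48).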

How the data were processed

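Per the authors' methods, reads (NovaSeq, paired ends) were aligned to the mm10 mouse genome with TopHat2 2.0.9 and counted per gene with HTSeq 0.6.1; Cufflinks 2.1.1 is also named. The deposited tables hold raw counts and FPKM values per gene. Strand handling and the annotation release are not given in the sources used here. Here, counts were tested with edgeR 4.0.16 (quasi-likelihood, TMM scaling, filterByExpr with a minimum of 10) in the 6 libraries of each comparison, the interaction in all 12, with Benjamini-Hochberg adjustment over all genes tested and a call at an adjusted p of at most 0.05. FPKM values are given as mean ± SD. An exact 2-sided permutation test of 3 against 3 libraries cannot go below p = 0.1, so none is quoted. The procedure was tested on simulated data. Members and gene lists were chosen with earlier results of these data known. Named genes were the members, up to 4 called genes per other list with the lowest adjusted p, any gene a small count needs, and the 2 most similar genes per member among those with a mean log2 CPM of at least 3. Alternatives were DESeq2 1.42.0 (also its size factors), total-count scaling, no filter, a fit of all 12 libraries, a replicate block, limma 3.58.1 on log2 FPKM with a pseudocount of 1 or 0.1, a threshold of 0.01, and the omission of each library in turn. A gene of the marker lists is not reported here.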

Additional observations from a re-analysis of the deposited data

How the results depend on the processing

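Across 16 alternatives per comparison, Cd9, Cd63, Cd151 and Tspan14 kept their call as lower on fibronectin in all of them. Shares in parentheses are of the tested genes called lower in that setting, against 9.79% (without fibronectin) and 13.2% (with it) in the main fit. Without fibronectin, the 2 members called lower became 1 with every gene with at least 1 count (4.96%). They also became 1 with limma on log2 FPKM after a minimum of 0.5 FPKM, with a pseudocount of 1 or 0.1 (7.49% for each). They became 0 with limma without a filter (2.08%) and at an adjusted p of at most 0.01. Leaving out 1 library gave 0 to 2 (4.70% to 14.0%). On fibronectin, the 7 became 4 with limma without a filter (3.34%) and at an adjusted p of at most 0.01. With 1 library left out they became 4 to 7 (8.43% to 14.4%). They became 6, without Cd53, with total counts (9.79%) and with the fit of all 12 libraries (11.5%). With limma after the FPKM minimum they became 6 without Cd81 (10.3% with a pseudocount of 1 and 10.2% with 0.1). Tspan4 made 1 member higher on fibronectin with total counts, with the replicate block and with limma after the FPKM minimum. The share of all genes called higher was 18.6%, 18.0% and 12.5% there, against 14.4% in the main fit. For fibronectin in IgG, the 1 member higher became 2 (Cd9 and Cd63) with DESeq2, with every gene with at least 1 count and with the replicate block. Over all genes, 42 of 12925 (0.325%) were called higher in the main fit. These settings called 100 of 3268 (3.06%), 175 of 25616 (0.683%) and 283 of 12925 (2.19%). The DESeq2 share is thus of fewer genes, those given an adjusted p. No member was called higher with total counts, the fit of all 12 libraries, limma, the stricter threshold and each library left out. Shares higher were 0.263% with total counts, 0.0743% with all 12 libraries, at most 0.0402% with limma, and 0.0454% to 0.584% with 1 library left out. Tspan3 changed sign without fibronectin with total counts (0.0095) and when 1 library was left out (−0.066 to 0.0033, positive without anti-ITGA5 replicate 2), and on fibronectin when 1 library was left out (−0.031 to 0.042, negative without IgG replicate 1 or 3 or anti-ITGA5 replicate 2). The cause of these shifts was not tested.

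Same-numbered replicates correlated at −0.02 to 0.15 in their deviations from the group means. No label says whether they share a mouse, culture or batch, and this was not tested. With the replicate block 2 members were lower without fibronectin, where 11.0% of all genes were called lower (9.79% without the block). On fibronectin that share was 17.2% with the block and 13.2% without it. In both antibody comparisons and in IgG every library correlated best with its own number, which did not hold for fibronectin in anti-ITGA5. Scaling by total counts moved the share of lower among called genes to 33.8% without fibronectin (47.1% with TMM) and to 34.4% with it (47.7% with TMM). Libraries of 3 per group limit these tests, and changes of the size seen for Tspan4 (0.12) were at the edge of what was called.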
